A study of Mus musculus with 4 samples.

Results

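The genes described here are p53 itself (Trp53), the proteins that hold it in check, and genes that p53 is known to switch on. They were taken as a list of 34 symbols, and each of the 34 matched a single row among the 23997 symbols of the table of FPKM values, which are sequenced fragments corrected for transcript length and library size. The RNA came from cultured mesenchymal stem/progenitor cells (MSPCs), the fibroblast-like stromal cells grown out of mouse bone marrow. There were 2 libraries of Asxl1-/- cells and 2 of wild-type (WT) cells, all on a C57BL/6 background, at passages 5 to 10 in MesenCult medium with its supplement. The labels give neither the passage of each culture nor the sex or number of mice, nor how the Asxl1 allele was made, and the replicate numbers used here follow the order of the samples and pair nothing. Nothing shows whether a group's cultures were taken from different mice, so each p-value reflects no more than how far these 4 libraries spread, which may be technical. The series asks what the loss of Asxl1, a chromatin regulator of the Polycomb system, does to self-renewal and cell fate of these cells.

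p53 is a transcription factor that is made all the time and destroyed almost as fast. Mdm2, a ubiquitin ligase, marks it for breakdown, and its relative Mdm4 binds and silences it. Damage to DNA and other stress free p53 from both, and it then turns on genes that stop the cell cycle, repair DNA or kill the cell, together with Mdm2 itself, which closes a feedback loop. Because p53 is controlled mainly through the stability of the protein, its mRNA level says little about its activity, which is usually read from its targets. In marrow stromal cells p53 is known to restrain growth and bone formation.

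Asxl1 stood at 0.273 and 0.312 FPKM in the Asxl1-/- libraries, against 14.6 and 11.2 FPKM in the WT libraries, which follows the labels in all 4. In limma this difference had an adjusted p of 0.215 (log2 fold change -3.41, standard error 0.29), so the deleted gene itself missed the threshold used below, whereas the authors' deposited table marked it significant with a q of 0.00836. The sum of FPKM was 553089 and 497340 in Asxl1-/- replicates 1 and 2, against 563749 and 703730 in WT replicates 1 and 2, and the number of reads behind them is unknown. Of 16 mesenchymal stromal markers, 14 and 14 reached 1 FPKM in the Asxl1-/- libraries and 15 and 14 in the WT libraries; Lepr, a marker of marrow stroma in the animal, was listed at 0 in Asxl1-/- replicate 2 and WT replicate 2 and was close to it in the other two. Macrophage markers summed to 80.9 and 377 FPKM in Asxl1-/- replicates 1 and 2 and to 7.52 and 561 FPKM in WT replicates 1 and 2. In Asxl1-/- replicate 1 a single one of these 15 markers, Fcer1g at 72.2 FPKM, made up most of the sum, and Fcgr1 was listed at 0. In WT replicate 1 Fcgr1, C1qb, Tyrobp and Fcer1g were listed at 0. No erythroid or lymphoid marker of the 8 checked reached 1 FPKM in any library.

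The p53 targets set the 2 WT cultures apart, and for most of them the Asxl1-/- cultures lay in between. All 34 members were among the 11481 genes with a mean of 1 FPKM or more, which were tested, Perp and Rprm through their WT libraries alone. Of the 34 members, 23 were lowest in WT replicate 1, where 24.9% of all genes tested were lowest, and 24 were highest in WT replicate 2, where 20.7% of all genes were highest. For 17 members the libraries fell in one order, from WT replicate 2 down through Asxl1-/- replicate 1 and Asxl1-/- replicate 2 to WT replicate 1. That order was shown by 4.42% of all genes. It was singled out after the values had been seen, and it gets no test.

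**Figure D1:**
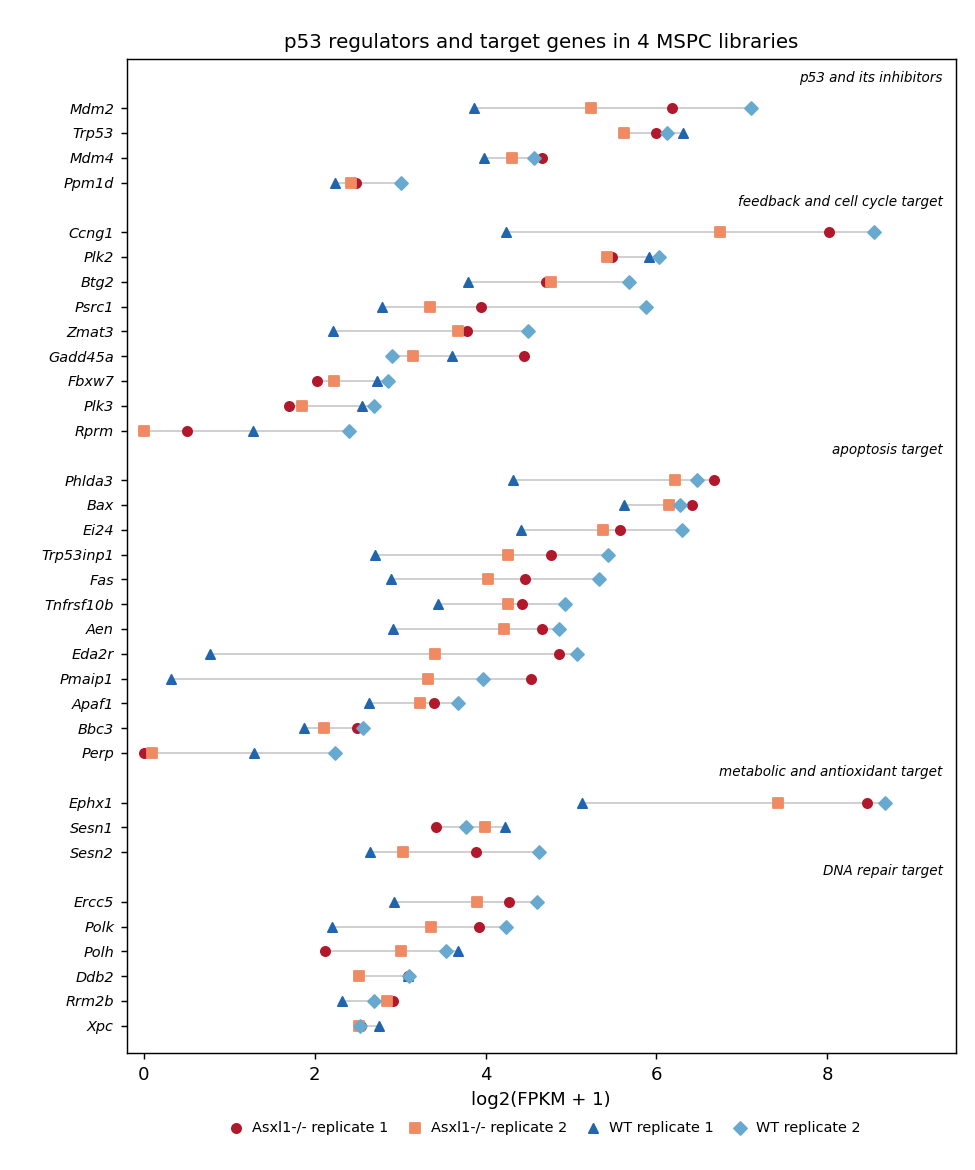
Level of each of the 34 members in each library as log2(FPKM + 1), grouped by role, with red symbols for the Asxl1-/- libraries, blue for the WT libraries and a grey line over the range of the 4. The triangles of WT replicate 1 stand furthest left for 23 members, whereas Trp53 itself is furthest right there.

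Within the WT genotype, 19 members were more than 1 log2 unit higher in replicate 2 than in replicate 1 on the log2(FPKM + 1) scale, and 0 were lower by as much. Among all genes 6.88% were higher and 6.67% lower by that margin. Within the Asxl1-/- genotype, 5 members (Ccng1, Gadd45a, Pmaip1, Eda2r and Ephx1) were more than 1 log2 unit higher in replicate 1 than in replicate 2, beside 6.0% of all genes, and 0 were lower by as much, beside 5.25%. The median difference over the 34 was 1.31 for WT replicate 2 minus WT replicate 1, and 0.38 for Asxl1-/- replicate 1 minus Asxl1-/- replicate 2. Over all genes these medians were -0.08 and 0.00. With 1 library against 1 library there is no replicate check on either difference.

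Trp53, the gene of p53, did not follow its targets. It stood at 62.7 and 48.0 FPKM in the Asxl1-/- libraries, against 78.7 and 68.8 FPKM in WT replicates 1 and 2. It was thus highest in the culture where most targets were lowest, and the WT libraries differed by a ratio of 0.875 (replicate 2 over replicate 1).

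The inhibitor genes of p53 were low in WT replicate 1, as most targets were and Trp53 was not. Mdm2 stood at 71.8 and 36.7 FPKM in Asxl1-/- replicates 1 and 2, against 13.6 and 136 FPKM in WT replicates 1 and 2. The WT libraries were thus 10.0-fold apart and enclosed both Asxl1-/- libraries. Mdm4 spread less, with 24.4 and 18.9 FPKM in the Asxl1-/- libraries against 14.8 and 22.7 FPKM in the WT libraries. Ppm1d (Wip1), a phosphatase that switches the p53 response off again, stood at 4.58 and 4.39 FPKM in the Asxl1-/- libraries, against 3.73 and 7.03 FPKM in the WT libraries. All of Mdm2, Mdm4 and Ppm1d were lowest in WT replicate 1.

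**Figure D2:**
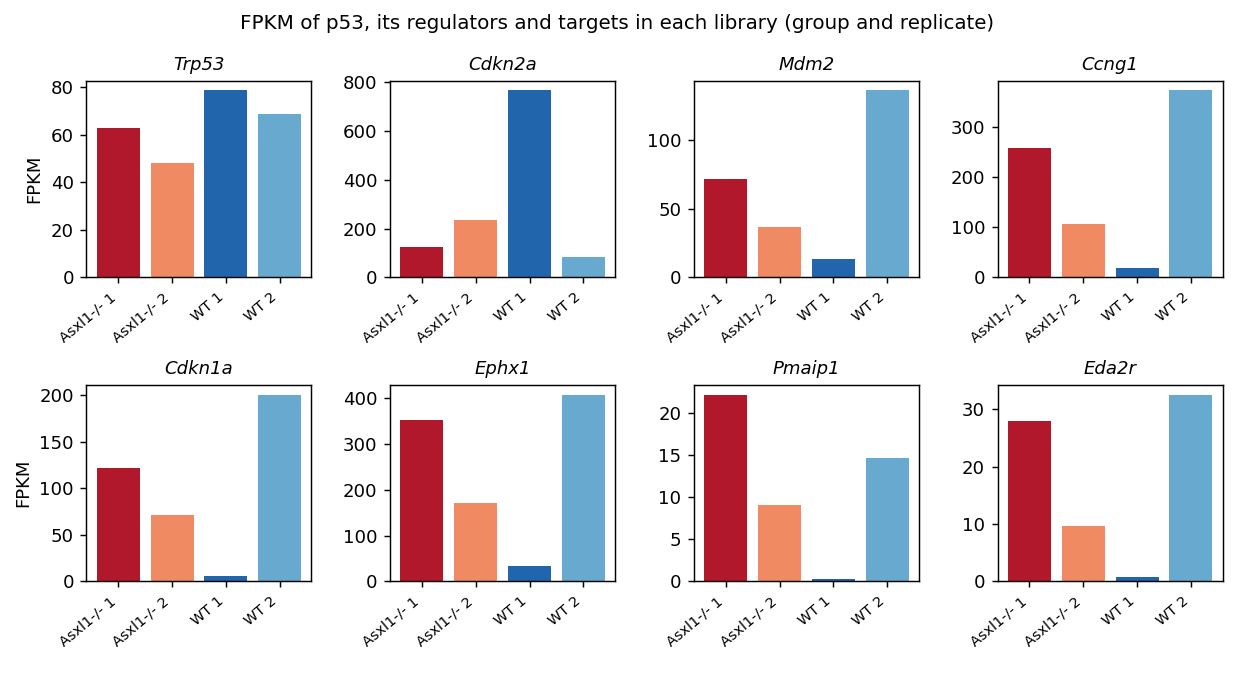
FPKM of p53 (Trp53), of Cdkn2a, which encodes p16 and Arf, and of 6 further genes in each library, from left to right Asxl1-/- replicates 1 and 2 and WT replicates 1 and 2; each bar is 1 library and each panel has its own axis from 0. The 6 genes from Mdm2 on are lowest in WT replicate 1, Cdkn2a is highest there at 766 FPKM, and Trp53 ranges from 48.0 to 78.7 FPKM.

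After the shared order had been seen, the promoters of all members were searched for exact matches to the p53 decamer. The decamer is the 10-base consensus that a p53 dimer contacts, and it reads alike on both strands. RefSeq windows (GRCm38.p6) of the 250 bases before a start site, 35 in all, were at hand for 26 members. A match in any window of a gene counted. A decamer was held by 10 of these 26 genes (38.5%), against 607 of 8643 tested genes with a window (7.02%). Most members were listed as genes that p53 is known to switch on. Their share may thus come with the list, and it says nothing of the order. Among the other lists, 4 of 38 further p53 targets and 3 of 26 genes upstream of p53 held one. A pair of CATG cores with 6 bases between them, as in a full p53 element, was in 0 of the 26 member genes and in 0.347% of tested genes; it too reads alike on both strands and can overlap a decamer. The 6 stretches below show the decamer in capitals with its flanks, 4 from genes that fell in the order described above and 2, Trp53 and Sesn1, that did not. They lie at chr11:40755437-40755496 (Ccng1, minus strand), chr10:117710910-117710969 (Mdm2, minus strand), chr7:78895912-78895971 (Aen, plus strand), chr13:96519384-96519437 (Polk, minus strand), chr11:69580259-69580318 (Trp53, plus strand) and chr10:41887241-41887300 (Sesn1, plus strand).
Ccng1: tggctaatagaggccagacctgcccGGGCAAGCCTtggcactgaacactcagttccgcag
Mdm2: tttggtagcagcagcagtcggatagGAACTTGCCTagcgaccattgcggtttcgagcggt
Aen: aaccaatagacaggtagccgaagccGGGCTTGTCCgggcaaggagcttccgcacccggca
Polk: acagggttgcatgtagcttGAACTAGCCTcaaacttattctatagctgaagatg
Trp53: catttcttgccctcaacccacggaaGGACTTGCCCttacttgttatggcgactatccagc
Sesn1: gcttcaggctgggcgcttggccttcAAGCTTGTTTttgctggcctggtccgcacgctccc
The Polk and Sesn1 stretches lie inside the spans listed for their genes (chr13:96480689-96542485 and chr10:41810574-41908436), each before a start site within the gene. The Aen stretch overlaps the start of the span listed for its gene (chr7:78895927-78908833), and its decamer lies inside that span. The other 4 members with a decamer were Ei24 and Ppm1d, which fell in the order described above, and Bax and Gadd45a, which did not. A match is a stretch of letters and not a binding site, and a window without one says nothing of p53 binding elsewhere in the gene.

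Among targets that act on the cell cycle, Ccng1 had the widest spread. Ccng1, which encodes cyclin G1, a partner of phosphatase 2A that helps Mdm2, stood at 258 and 106 FPKM in Asxl1-/- replicates 1 and 2, against 17.8 and 374 FPKM in WT replicates 1 and 2. The means of 182 ± 108 FPKM in Asxl1-/- and 196 ± 252 FPKM in WT (SD, n = 2 each) differed by less than either spread, while WT replicate 1 had 0.0477 of the level of WT replicate 2. Psrc1, a microtubule-binding protein, stood at 14.5 and 9.20 FPKM in the Asxl1-/- libraries against 5.91 and 57.6 FPKM in the WT libraries, so WT replicate 2 lay far above the other 3. Zmat3, an RNA-binding regulator of splicing, stood at 12.8 and 11.8 FPKM in the Asxl1-/- libraries, against 3.65 and 21.6 FPKM in the WT libraries. Btg2, an antiproliferative adaptor of mRNA deadenylation, stood at 25.04 and 26.2 FPKM in the Asxl1-/- libraries, against 12.9 and 50.3 FPKM in the WT libraries. For Zmat3 and Btg2 the Asxl1-/- libraries lay close together in the gap between the WT libraries.

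The remaining cell cycle genes did not share this pattern. Gadd45a, a stress sensor that binds PCNA and Cdk1, stood at 20.9 and 7.86 FPKM in the Asxl1-/- libraries against 11.1 and 6.51 FPKM in the WT libraries. Plk2, a polo-like kinase of centriole duplication, stood at 43.6 and 41.9 FPKM in Asxl1-/- cells against 59.2 and 64.4 FPKM in WT cells, and Plk3, its stress-responsive relative, at 2.25 and 2.61 FPKM in Asxl1-/- cells against 4.88 and 5.46 FPKM in WT cells. Fbxw7, the ubiquitin ligase subunit that marks cyclin E and Myc for breakdown, stood at 3.07 and 3.69 FPKM in Asxl1-/- cells against 5.64 and 6.24 FPKM in WT cells. In Plk2, Plk3 and Fbxw7 the replicates of each genotype lay close together, and both Asxl1-/- libraries were below both WT libraries. Fbxw7 lies on chromosome 3, whose 559 tested genes were shifted the same way as a whole. Their medians against the 4-library mean were -0.44 and -0.05 log2 units in Asxl1-/- replicates 1 and 2. In WT replicates 1 and 2 they were 0.42 and 0.08, and the part of this in the values of Fbxw7 was not tested. Rprm, an inhibitor of entry into mitosis, was at 0.418 FPKM in Asxl1-/- replicate 1, listed at 0 in Asxl1-/- replicate 2, and at 1.42 and 4.29 FPKM in the WT libraries. Rprm passed the filter on low values through its WT libraries alone.

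Of the roles, apoptosis held the largest share of genes lowest in WT replicate 1, with 11 of 12, against 3 of 4 for p53 and its inhibitors, 4 of 9 for the cell cycle, 2 of 3 for metabolism and 3 of 6 for DNA repair. Pmaip1 (Noxa), which blocks the survival protein Mcl1, stood at 22.1 and 9.03 FPKM in Asxl1-/- replicates 1 and 2, against 0.249 and 14.6 FPKM in WT replicates 1 and 2. Eda2r, a receptor of the tumour necrosis factor family, stood at 28.0 and 9.61 FPKM in the Asxl1-/- libraries, against 0.708 and 32.6 FPKM in the WT libraries. Both genes were below 1 FPKM in WT replicate 1 alone. Trp53inp1, a stress protein that promotes p53 phosphorylation, stood at 26.1 and 18.3 FPKM in the Asxl1-/- libraries, against 5.53 and 42.2 FPKM in the WT libraries.

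The death receptor genes behaved alike. Fas stood at 21.1 and 15.3 FPKM in the Asxl1-/- libraries against 6.43 and 39.1 FPKM in the WT libraries. Tnfrsf10b, the mouse receptor of TRAIL, stood at 20.5 and 18.2 FPKM in the Asxl1-/- libraries against 9.83 and 29.4 FPKM in the WT libraries. Among genes that act inside the cell, Aen, a nuclease that cuts DNA in dying cells, stood at 24.3 and 17.5 FPKM in the Asxl1-/- libraries against 6.54 and 27.9 FPKM in the WT libraries. Phlda3, which holds back the kinase Akt, stood at 101 and 73.2 FPKM in the Asxl1-/- libraries, against 19.0 and 88.1 FPKM in the WT libraries. Ei24, an endoplasmic reticulum protein, stood at 46.5 and 40.4 FPKM in the Asxl1-/- libraries against 20.3 and 77.6 FPKM in the WT libraries. Ei24 lies on chromosome 9, whose 634 tested genes were on the whole lower in WT replicate 1 and higher in WT replicate 2. Their medians there were -0.25 and 0.30 log2 units against the 4-library mean. Chromosomes of other members were shifted as well. In WT replicate 1 the median was 0.42 on chromosome 3 (Zmat3, Psrc1 and Fbxw7) and 0.31 on chromosome 4 (Sesn2, Trp53inp1 and Plk3). On chromosome 10 (Mdm2, Apaf1, Sesn1 and Perp) it was -0.29. The part of these shifts in the values of the members was not tested.

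Of the remaining apoptosis genes, Bax, the pore-forming effector of the mitochondrial pathway, stood at 84.1 and 69.7 FPKM in the Asxl1-/- libraries against 48.3 and 76.3 FPKM in the WT libraries. Bbc3 (Puma), its activator, stood at 4.63 and 3.31 FPKM in the Asxl1-/- libraries against 2.66 and 4.91 FPKM in the WT libraries. Apaf1, the scaffold of the caspase-activating apoptosome, stood at 9.55 and 8.38 FPKM in the Asxl1-/- libraries against 5.21 and 11.8 FPKM in the WT libraries. The WT libraries were 1.58-fold apart for Bax, 1.84-fold for Bbc3 and 2.27-fold for Apaf1. Perp, a protein of desmosomes, was the exception among the 12. It was listed at 0 in Asxl1-/- replicate 1 and stood at 0.0711 FPKM in Asxl1-/- replicate 2, against 1.45 and 3.70 FPKM in the WT libraries, and like Rprm it passed the filter through WT alone.

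Of the metabolic targets, Ephx1, an epoxide hydrolase of detoxification, was among the most abundant members. It stood at 351 and 170 FPKM in Asxl1-/- replicates 1 and 2, against 34.04 and 407 FPKM in WT replicates 1 and 2. Sesn2, a stress-induced inhibitor of mTORC1, stood at 13.8 and 7.17 FPKM in the Asxl1-/- libraries against 5.25 and 23.7 FPKM in the WT libraries. Its relative Sesn1 ran the other way, with 9.74 and 15.0 FPKM in the Asxl1-/- libraries against 17.7 and 12.6 FPKM in the WT libraries. Sesn1 was thus highest, and Ephx1 and Sesn2 lowest, in WT replicate 1.

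The DNA repair targets were divided. Polk, a polymerase that copies past damaged bases, stood at 14.2 and 9.31 FPKM in the Asxl1-/- libraries against 3.60 and 17.8 FPKM in the WT libraries, and the nuclease Ercc5 (Xpg) at 18.4 and 13.9 FPKM in the Asxl1-/- libraries against 6.60 and 23.2 FPKM in the WT libraries. Both fell in the order of most apoptosis genes. Rrm2b, the ribonucleotide reductase subunit that p53 induces, stood at 6.52 and 6.21 FPKM in Asxl1-/- cells against 3.97 and 5.49 FPKM in WT cells.

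The damage-recognition genes and the second bypass polymerase differed from these. Xpc stood at 4.82 and 4.74 FPKM in the Asxl1-/- cultures and at 5.75 and 4.76 FPKM in the WT cultures, while Ddb2 at 7.518 and 4.72 FPKM in the Asxl1-/- cultures and at 7.519 and 7.62 FPKM in the WT cultures. Neither was low in WT replicate 1. Polh, whose product copies past ultraviolet damage, stood at 3.36 and 7.08 FPKM in Asxl1-/- cells, against 11.8 and 10.6 FPKM in WT cells. In Polh both Asxl1-/- libraries were below both WT libraries, with Asxl1-/- replicate 1 the lowest.

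Between the genotypes, none of the 34 members rose or fell at an adjusted p under 0.05 in limma on log2(FPKM + 1), where the adjusted p ran from 0.577 to 0.999 with Perp and Rprm left out. Asxl1 missed this threshold too, so a count of 0 says little about smaller differences. Among all genes 0.0% rose and 0.0261% fell by this test, a count of 3. At an unadjusted p under 0.05 there were 0 members higher and 4 lower (Perp, Plk3, Rprm and Polh), beside 2.51% of all genes higher and 5.41% lower. Perp and Rprm had entered the test only through WT, where they were higher, which leaves 2 of 32, a share near that of all genes. The median log2 fold change of the 34, Asxl1-/- minus WT, was 0.15, with 20 positive and 14 negative, and that of all genes was -0.07.

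The genotypes separated without overlap, Asxl1-/- higher, for 1 member (Rrm2b), beside 15.6% of all genes, and, Asxl1-/- lower, for 8 (Trp53, Plk2, Plk3, Rprm, Fbxw7, Perp, Ddb2 and Polh), beside 25.2% of all genes. Of these 8, Ddb2 was separated by the fourth digit alone. In limma Plk3 had a log2 fold change of -0.85 (standard error 0.27, adjusted p = 0.577) and Polh one of -1.03 (standard error 0.37, adjusted p = 0.617). Neither of these passed the threshold, and no test is given for Perp and Rprm. Of 34 proliferation genes, 32 had both Asxl1-/- libraries below both WT libraries, beside 25.2% of all genes. At an unadjusted limma p under 0.05, 23 were lower in Asxl1-/-, beside 5.41% of all genes. After adjustment 0 were, beside 0.0261%. The 34 proliferation genes summed to 451 and 419 FPKM in the Asxl1-/- libraries against 1155 and 789 FPKM in the WT libraries. Their part in the levels of the 8 was not tested.

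The WT libraries were further apart from each other than the 2 genotype means for 26 of the 34 members, beside 57.7% of all genes. For Ccng1 the log2 fold change of 0.99 had a standard error of 1.503, for Mdm2 0.23 had a standard error of 1.13, and for Pmaip1 1.79 had a standard error of 1.29. The positive sign of Ccng1 and Mdm2 comes from averaging logarithms. Their mean FPKM was lower in Asxl1-/- libraries, at 182 against 196 in WT for Ccng1 and 54.2 against 75.04 in WT for Mdm2, and the authors' deposited table gave log2 fold changes of -0.03 and -0.39.

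**Figure D3:**
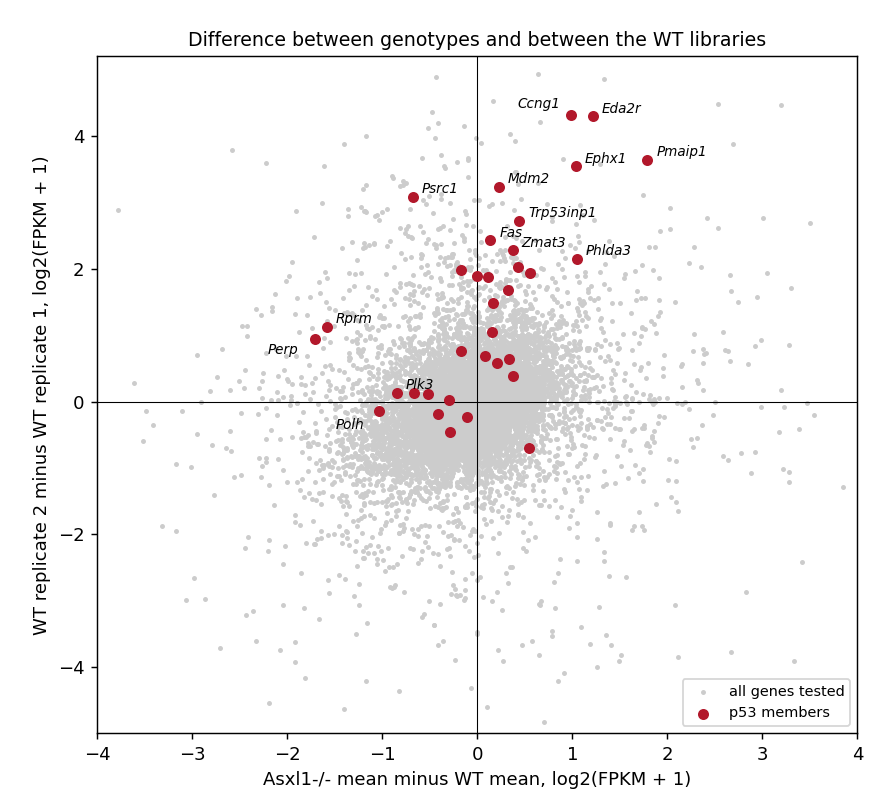
For each tested gene, the Asxl1-/- mean minus the WT mean (horizontal) against WT replicate 2 minus WT replicate 1 (vertical), both in log2(FPKM + 1), with the 34 members in red and all 11481 genes in grey; 53 genes lie outside the axes. Most members stand above the horizontal line, up to Ccng1 and Eda2r, and on both sides of the vertical line.

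For most members the direction of the genotype difference therefore turned with the choice of WT library. It did not turn for Rrm2b or for the 8 members lower in Asxl1-/- without overlap. Without WT replicate 2, both Asxl1-/- libraries were above the remaining WT library for 23 members, beside 31.0% of all genes, and below it for 10, beside 45.3%. Without WT replicate 1, they were above it for 2 members, beside 29.9% of all genes, and below it for 26, beside 37.9%. The median log2 fold change was 0.75 without WT replicate 2 and -0.59 without WT replicate 1. No member passed the adjusted threshold in either fit, in which the lone WT library is assumed to vary like the Asxl1-/- libraries.

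A second list held 43 further p53 targets, and 39 of them passed the filter. Of the 39, 22 were lowest in WT replicate 1, beside 24.9% of all genes, and 12 fell in the order given above, beside 4.42% of all genes. Cdkn1a (p21), the inhibitor through which p53 stops the cell cycle, stood at 122 and 71.3 FPKM in Asxl1-/- replicates 1 and 2, against 5.92 and 201 FPKM in WT replicates 1 and 2. The WT libraries were 33.9-fold apart for Cdkn1a. The median over the list was 1.15 log2 units for WT replicate 2 minus WT replicate 1 and 0.86 for Asxl1-/- replicate 1 minus Asxl1-/- replicate 2.

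Between the genotypes 0 of these 39 passed the adjusted threshold, and at an unadjusted p under 0.05 there were 1 higher and 2 lower, or 2.56% and 5.13%, close to the 2.51% and 5.41% of all genes. These 3 are given for their values and not as a result about the list. Trp53inp2, an autophagy regulator, stood at 49.1 and 49.4 FPKM in Asxl1-/- cells against 18.5 and 24.8 FPKM in WT cells (log2 fold change 1.16, standard error 0.25, adjusted p = 0.502). Ptprv, a tyrosine phosphatase of bone cells, stood at 1.18 and 0.965 FPKM in Asxl1-/- cells against 9.47 and 76.2 FPKM in WT cells, and Ckap2, a spindle protein, at 15.6 and 16.5 FPKM in Asxl1-/- cells against 23.0 and 36.5 FPKM in WT cells. No library of one genotype overlapped the other for these 3 genes, though for Ptprv the WT libraries were 8.05-fold apart.

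Genes that act upstream of p53 or bind it were spread differently over the libraries. Of 28 tested, 1 was lowest in WT replicate 1 (Rchy1), beside 24.9% of all genes. The median WT difference of the 28, replicate 2 minus replicate 1, was -0.15, near the -0.08 of all genes. Cdkn2a, the locus of the Mdm2 inhibitor Arf and of the Cdk inhibitor p16, ran opposite to the targets. It stood at 125 and 234 FPKM in Asxl1-/- replicates 1 and 2, against 766 and 82.3 FPKM in WT replicates 1 and 2, and the table does not separate its 2 products. Both Asxl1-/- libraries were below both WT libraries for 14 of the 28, beside 25.2% of all genes, and above them for 2, beside 15.6%. None of the 28 passed the adjusted threshold.

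Of this list Chek1 and Twist1 were lower in both Asxl1-/- libraries with an unadjusted limma p under 0.05. Trp63 was lower in both as well, though it had passed the filter through its WT libraries alone. Trp63, the p53 relative of epithelia, stood at 0.165 and 0.151 FPKM in Asxl1-/- cells against 8.54 and 3.43 FPKM in WT cells, and its test is not given. Chek1, the kinase of the replication checkpoint, stood at 1.71 and 1.43 FPKM in Asxl1-/- cells against 4.27 and 3.88 FPKM in WT cells, and Twist1, a mesenchymal factor that dampens p53, at 11.9 and 9.67 FPKM in Asxl1-/- cells against 30.1 and 17.2 FPKM in WT cells. The genotypes did not overlap for any of the 3. In the authors' deposited table Trp63 and Ptprv were both marked significant, with log2 fold changes of -5.11 and -5.24 and a q of 0.00836 each, and neither passed the adjusted threshold in limma.

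**Figure D4:**
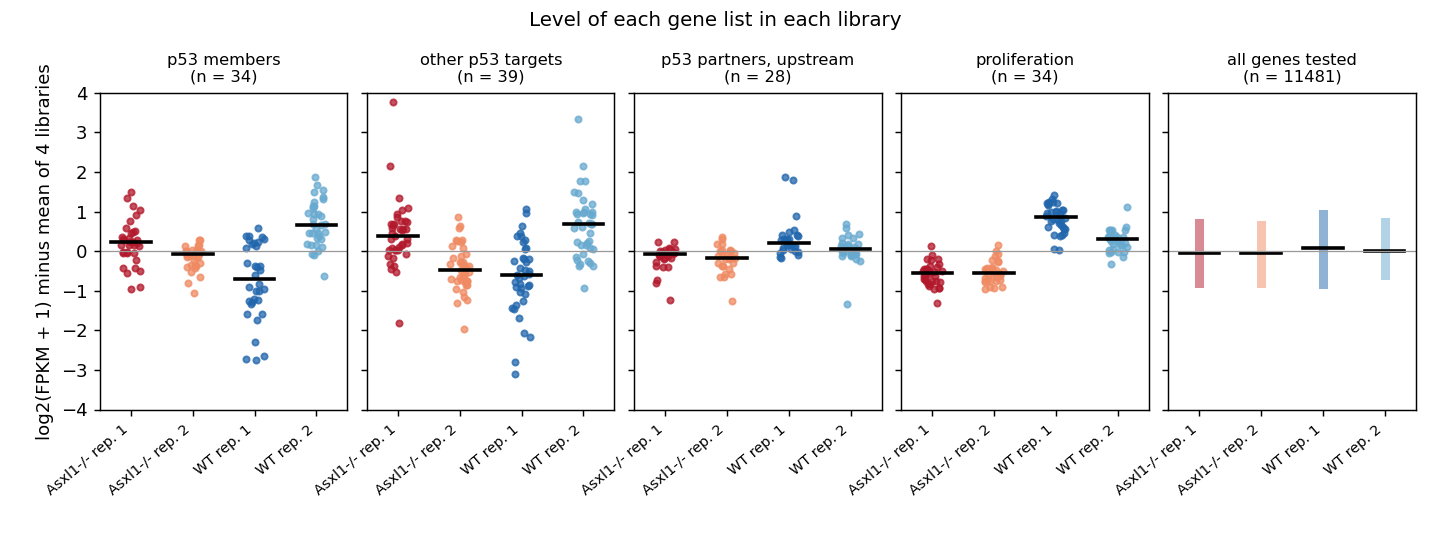
Difference of each gene from its mean over the 4 libraries, in log2(FPKM + 1), by list and library; points are genes, black lines medians, and for all genes a bar spans the 5th to 95th percentile. In WT replicate 1 the medians are -0.71 for the 34 members, -0.61 for the other p53 targets, 0.20 for p53 partners and upstream genes and 0.86 for proliferation genes.

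Other features of the libraries stood beside this pattern in different orders. The median of the 34 members relative to the mean of the 4 libraries was 0.23 and -0.07 in Asxl1-/- replicates 1 and 2, and -0.71 and 0.67 in WT replicates 1 and 2. The proliferation list gave -0.56 and -0.56 in Asxl1-/- replicates 1 and 2, and 0.86 and 0.31 in WT replicates 1 and 2. WT replicate 1 was thus lowest for the p53 members and highest for proliferation, whereas the Asxl1-/- libraries had equal proliferation medians and unequal p53 medians. Some stromal markers also set the libraries of a genotype apart, in WT and in Asxl1-/-, and these were picked after their values were seen. Pdgfra, a growth factor receptor of stroma, stood at 58.8 and 63.0 FPKM in Asxl1-/- replicates 1 and 2, against 80.9 and 4.78 FPKM in WT replicates 1 and 2. Eng, a co-receptor of the TGF-beta family, stood at 0.906 and 0.571 FPKM in the Asxl1-/- libraries against 10.7 and 0.912 FPKM in the WT libraries, and Col3a1, a fibrillar collagen, at 637 and 738 FPKM in the Asxl1-/- libraries against 625 and 283 FPKM in the WT libraries. All 3 were more than 1 log2 unit lower in WT replicate 2 than in WT replicate 1. Ly6a and Prrx1 were higher in WT replicate 2 by more than that margin. In WT replicates 1 and 2 Ly6a stood at 70.0 and 276 FPKM, and Prrx1 at 111 and 272 FPKM. In Asxl1-/- replicates 1 and 2 Ly6a stood at 1059 and 184 FPKM, and Prrx1 at 207 and 91.1 FPKM. Within Asxl1-/-, Thy1, Ly6a and Prrx1 were higher in replicate 1 by more than 1 log2 unit, and Vcam1 and S100a4 were lower by more than that. The median of the 15 tested stromal markers was 0.21 log2 units higher in WT replicate 2. Most macrophage markers were low in Asxl1-/- replicate 1 and WT replicate 1, where the medians of the p53 members were 0.23 and -0.71. Of the 12 macrophage markers tested, 8 were lowest in WT replicate 1, beside 24.9% of all genes. In WT replicate 2, 11 of the 12 were highest, beside 20.7% of all genes. WT replicates 1 and 2 were also the lowest and highest for the p53 members. Most of the 12 markers were below 1 FPKM in Asxl1-/- replicate 1 and WT replicate 1. They passed the filter through the other libraries, where they were high, so the filter bears on these marker counts. In bulk RNA fewer cells of a type and less RNA per cell cannot be told apart. The part of proliferation, of stromal make-up or of other cells in the p53 values was not tested.

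The authors' deposited table tested all 34 members and marked 0 of them as significant, against 0.939% of the 12881 genes it tested. Of the 34, 15 were positive and 19 negative in the authors' deposited table, and the lowest q was 0.534, for Psrc1 (log2 fold change -1.34, with group values of 14.8 FPKM in Asxl1-/- and 37.7 FPKM in WT). The authors' deposited table gives 1 value per group, without the spread seen above between the 2 WT libraries of Psrc1.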

How the data were processed

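RNA sequencing of 2 Asxl1-/- and 2 WT libraries was analysed from the FPKM values the authors deposited for each library. Per the submitters' processing notes, the tools were TopHat2 2.0.3, Cufflinks 2.2.1 and Cuffdiff and the build was mm10, with no annotation or strandedness stated. The log2 fold changes, p-values and q-values of the authors' deposited table compare 1 value per group; which libraries entered is not stated. The FPKM table and its log copy each hold 2 columns, 1 headed KO and 1 headed WT, that match no sample described here; these 4 columns were not used.

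Of several rows of a symbol, the one with the highest mean was kept. The 11481 genes averaging 1 FPKM or more were tested with limma (version 3.58.1, R 4.3.3; variance trend) on log2(FPKM + 1), Asxl1-/- minus WT, with Benjamini-Hochberg adjustment over all of them at 0.05, two-sided. This scale understates the change of low genes. All 34 members are named, with Asxl1, Cdkn1a and Cdkn2a, and from the other pathway lists genes with no overlap between groups and an unadjusted p under 0.05. Members and lists were chosen with earlier results of these data known. Alternatives were a pseudocount of 0.1, a filter at 5 FPKM or none, median ratio scaling, no variance trend, summed rows and each library left out; removal of chromosome medians was added after seeing the data. Read depth is unknown, so no counting error is given. Python 3.11.15, pandas 2.3.3, numpy 2.4.6 and matplotlib 3.10.9 were used.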

Additional observations from a re-analysis of the deposited data

How the results depend on the processing

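No paired analysis was possible because replicate numbers follow the order of the samples and pair none of them. The counts of members lowest in WT replicate 1, in the order described and past 1 log2 unit within a genotype stayed within 1.5 times their value under a pseudocount of 0.1, a filter at 5 FPKM or none, median ratio scaling, summed rows and removal of chromosome medians, and no member passed the adjusted threshold in these fits or in those without a variance trend or without 1 library. Over all genes the count lower in Asxl1-/- was 1 with no filter, against 3. With the filter at 5 FPKM the members below WT in both Asxl1-/- libraries were 4, and the upstream genes 7 below and 1 above, since fewer genes enter. With chromosome medians removed, 2 members, 8 other targets and 1 upstream gene were above WT, 9 upstream genes were below, 4 were lowest in WT replicate 1 (3 after median ratio scaling), and the upstream median was -0.16. The matching shares of all genes under these settings were not computed, so these counts are not read as results about the lists. Of single genes, removal of chromosome medians turned Apaf1 (-0.15), Mdm2 (-0.081), Sesn2 (0.067) and Xpc (0.10), and Btg2 turned with median ratio scaling (0.084) and a pseudocount of 0.1 (0.0089); the cause was not tested.

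With 1 library left out, the count of all genes ran from 0 to 4 higher and from 1 to 6 lower. Members above WT ran from 1 to 23 and below WT from 9 to 26, with a median log2 fold change from -0.59 to 0.75. Other targets ran from 5 to 22 above and from 7 to 23 below. Upstream genes ran from 3 to 4 above, with a median from -0.32 to -0.20. Of all genes, 31.0% were above and 45.3% below without WT replicate 2, and 29.9% and 37.9% without WT replicate 1. With no library left out these shares were 15.6% and 25.2%. Shares without an Asxl1-/- library were not computed. The log2 fold change of 26 of 43 named genes changed sign. Without WT replicate 1 and without WT replicate 2 it was -0.42 and 1.52 for Aen, -0.37 and 0.68 for Apaf1, -0.26 and 0.43 for Bbc3, -0.95 and 0.94 for Btg2, -1.17 and 3.15 for Ccng1, -1.10 and 3.77 for Cdkn1a, 1.04 and -2.16 for Cdkn2a, -0.94 and 3.36 for Eda2r, -0.83 and 1.06 for Ei24, -0.73 and 2.81 for Ephx1, -0.51 and 1.16 for Ercc5, -1.08 and 1.35 for Fas, -1.39 and 1.84 for Mdm2, -0.080 and 0.50 for Mdm4, -0.032 and 2.12 for Phlda3, -0.035 and 3.61 for Pmaip1, -0.59 and 1.45 for Polk, -0.55 and 0.21 for Ppm1d, -2.22 and 0.86 for Psrc1, -1.17 and 0.82 for Sesn2, -0.58 and 0.90 for Tnfrsf10b, -0.92 and 1.81 for Trp53inp1, 0.0051 and -0.22 for Xpc, and -0.77 and 1.51 for Zmat3. Without Asxl1-/- replicate 1 and without Asxl1-/- replicate 2 it was -0.11 and 1.20 for Gadd45a, and 0.00040 and -0.57 for Sesn1.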
